A study of Mus musculus with 5 samples.

Results

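Transcripts of 10 genes of the BMP pathway were followed in embryos with and without Oct4: the ligands Bmp2, Bmp4 and Bmp7, the secreted modulators Bmper, Chrd, Nog and Twsg1, and the receptors Bmpr1a, Bmpr2 and Acvr1. The genes were found by symbol in a table of read counts for 49671 genes, where each had a single entry, and all 10 were among the 12067 genes with enough counts to be tested. RNA had been sequenced from 5 mouse embryos at E6.75, on a background labelled mixed. The 3 mutants (SO-) were labelled Sox2Cre+/-; Oct4 fl/-, and so had Cre, a floxed Oct4 allele and a deleted Oct4 allele. The 2 controls (SO+) were labelled WT; Sox2Cre-/-; Oct4 fl/+, without Cre and with a floxed allele beside an intact allele, so that a floxed allele was shared by all 5 embryos. Cre was driven by the Sox2 promoter, which acts mainly in the epiblast, whereas each library was made from epiblast plus visceral endoderm (VE) after the extra-embryonic ectoderm (ExE) had been cut away. The libraries were made to find early transcriptional changes after Oct4 loss, with components of signalling pathways among the genes examined.

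BMPs are secreted dimers of the TGF-beta superfamily. They bring together type I receptors, such as Bmpr1a and Acvr1, with type II receptors, such as Bmpr2, and the receptor complex phosphorylates Smad1, Smad5 and Smad9, which enter the nucleus with Smad4. Chordin and noggin bind the ligands outside the cell and keep them from their receptors, while Twsg1 and Bmper can bind both ligands and chordin and either hinder or favour signalling. In the gastrulating mouse embryo Bmp4 from the ExE acts on the proximal epiblast, Bmp2 is made in the VE, and Chrd and Nog are made by the anterior streak and its axial derivatives.

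Levels are given as CPM (the gene's count per 1e6 counts in the library). Library totals were 27538119 and 27047148 counts in SO+ embryos and ranged from 1117566 to 4191498 in SO- embryos, so that 3 counts, taken as the smallest level a library can show, corresponded to about 0.11 CPM in SO+ embryos and to 0.716 to 2.68 CPM in SO- embryos. The targeted transcript, Pou5f1, was at 920.2 and 435.3 CPM in SO+ embryos, against 27.8, 12.5 and 43.7 CPM in SO- embryos 1, 2 and 3, so that it was lower in every SO- embryo (log2 fold change -4.43, adjusted p = 3.94e-05 from edgeR). Both SO+ libraries carried another second index than the SO- libraries, so index, depth and genotype cannot be told apart. Markers of both tissues were present. Over 6 epiblast genes they summed to 4980 and 4371 CPM in SO+ and to 2459 to 3487 CPM in SO- embryos, with Dnmt3b (lower) the only member past the threshold. Dnmt3b made up most of that sum in every embryo, at 3983 and 3263 CPM in SO+ against 1708, 1447 and 2286 CPM in SO- embryos. The log2 fold change was above 0 in 3 of the 6 epiblast genes. Over 10 VE genes the sum was 2950 to 4729 CPM. Over 5 anterior VE genes the sum was 186.0 and 192.9 CPM in SO+ against 275.1 to 297.5 CPM in SO- embryos, with Cer1 the only member past the threshold. The log2 fold change was above 0 in all 5, and Hhex, Dkk1 and Hesx1 were also higher in every SO- embryo, while Lefty1 overlapped. Of all genes tested, 49.7% had a log2 fold change above 0 and 13.9% were higher in every SO- embryo. Hesx1 in SO- embryo 2 was at 3.58 CPM from 4 counts, against 3.40 CPM in SO+ embryo 2. The part of these markers in the differences given here was not tested. Of 7 maternal and immune markers, 5 had no count in any embryo. In bulk samples fewer cells of a type and less RNA per cell cannot be told apart.

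Of the 10 genes, Bmp7 and Bmper rose in SO- embryos and the other 8 did not pass the test (edgeR's quasi-likelihood test, adjusted p over 12067 genes, threshold 0.05). By the same test 2.35% of all genes were called, 1.42% as higher and 0.928% as lower. In Bmp4, Bmp7, Bmper and Chrd every SO- embryo lay above both SO+ embryos, and in the remaining 6 genes the genotypes overlapped. Over all genes tested, 13.9% had every SO- value above the SO+ values and 15.6% had every SO- value below them. The log2 fold change (SO- over SO+) was above 0 for 9 of the 10 genes and for 49.7% of all genes tested. Its median was 0.54 for the 10 genes and -0.0019 for all genes tested. It was 1.27 for the 3 ligands, 0.81 for the 4 modulators and 0.14 for the 3 receptors.

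**Figure D1:**
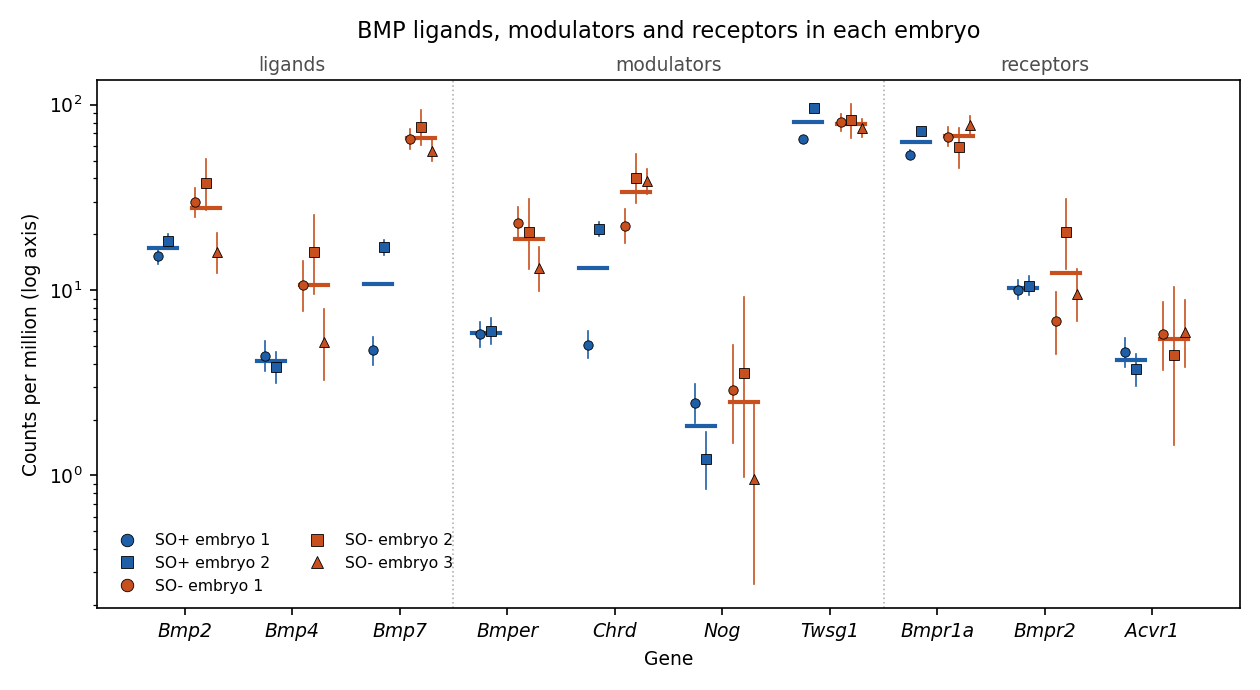
Level (CPM, log axis) of the 10 BMP genes in the 2 SO+ and 3 SO- embryos. Points are embryos, thin vertical lines the exact 95% Poisson interval of each count (counting error only) and thick horizontal lines the mean of each genotype. Bmp7 and Bmper are separated by genotype, while the receptors and Twsg1 overlap.

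Bmp7 (ENSMUSG00000008999, chromosome 2 of GRCm38, 172868012 to 172940321, minus strand) had the largest difference of the 10 genes. This ligand belongs to another branch of the family than Bmp2 and Bmp4 and can form heterodimers with either. It was at 4.72 and 16.97 CPM in SO+ embryos 1 and 2 and at 65.5, 76.1 and 56.5 CPM in SO- embryos 1, 2 and 3, from 85 to 459 counts per embryo. The lowest SO- embryo was thus 3.33-fold above the highest SO+ embryo. The fitted log2 fold change was 2.59 (standard error 0.40, 95% interval 1.71 to 3.46, adjusted p = 0.00427 from edgeR). The SO+ embryos differed 3.59-fold from each other, and the log2 fold change was 1.93 without SO+ embryo 1 and 3.78 without SO+ embryo 2. The adjusted p from edgeR was 0.0887 without SO- embryo 1, 0.163 without SO- embryo 2 and 0.191 with a robust estimate of spread, at log2 fold changes of 2.57, 2.498 and 2.59.

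Bmp4 (ENSMUSG00000021835, chromosome 14, 46383520 to 46390669, minus strand), the ligand that the proximal epiblast normally receives from the ExE, had the lowest mean level per kilobase of exon of the 3 ligands in both genotypes. It had 4.43 and 3.85 CPM in SO+ embryos, against 10.6, 16.1 and 5.25 CPM in SO- embryos, with 18 to 44 counts in each SO- embryo. The genotypes did not overlap, but SO- embryo 3 lay only 1.18-fold above SO+ embryo 1, and its exact Poisson interval (3.29 to 7.95 CPM, counting error only) contained both SO+ values. The log2 fold change of Bmp4 was 1.27 (standard error 0.48, 95% interval 0.22 to 2.32, adjusted p = 0.242 from edgeR). Since the ExE is the known source of Bmp4, ExE markers were read beside it. The defining markers Elf5 and Esrrb were scarce. Elf5 was at 0.109 and 0.185 CPM in SO+ against 0.484, 0 and 2.62 CPM in SO- embryos, the last from 11 counts. Esrrb was at 0.981 and 0.296 CPM in SO+ against 0.484, 0 and 0.239 CPM in SO- embryos. Cdx2 was at 2.43 and 5.88 CPM in SO+ against 8.71, 7.16 and 2.39 CPM in SO- embryos 1, 2 and 3. The log2 fold change was above 0 in 3 of the 7 tested ExE markers, and in 49.7% of all genes tested. None of the 7 tested of 10 ExE markers passed the threshold (Furin, Pcsk6 and Bmp8b of this list are also pathway genes). The sum of the 10 was 36.1 and 32.7 CPM in SO+ against 34.1 to 47.4 CPM in SO- embryos. Furin was its largest part, at 14.6 and 11.5 CPM in SO+ against 15.2, 25.05 and 15.3 CPM in SO- embryos 1, 2 and 3. The highest sum, in SO- embryo 2, thus held the most Furin. Markers of the extra-embryonic mesoderm, a later site of Bmp4 transcription, were also read. Their sum over 6 genes was 3.63 and 9.69 CPM in SO+ against 22.7 to 49.2 CPM in SO- embryos, again highest in SO- embryo 2 and lowest of the mutants in SO- embryo 3. Only 2 of the 6 could be tested, and Hand1 rose (log2 fold change 3.04, adjusted p = 0.00753 from edgeR) from 1.09 and 2.74 CPM to 13.5, 24.2 and 11.9 CPM. The other, Kdr, did not pass (log2 fold change 2.64, adjusted p = 0.222 from edgeR). Of the untested members, Tal1 was at 0.508 and 0.739 CPM in SO+ against 2.18, 4.47 and 1.67 CPM in SO- embryos (9, 5 and 7 counts). Foxf1 was at 0.0363 and 0.259 CPM in SO+ against 0.967, 2.68 and 0.239 CPM in SO- embryos (4, 3 and 1 counts). Tbx4 was at or near 0 in every embryo. Ahnak was at 1.96 and 1.33 CPM in SO+ and at 0.484, 0 and 0.477 CPM in SO- embryos, with 2, 0 and 2 counts. These SO- values lay under the level of 3 counts, which in SO- embryo 2 (2.68 CPM) was above both SO+ values. The part of such cells in the Bmp4 values was not tested.

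Bmp2 (ENSMUSG00000027358, chromosome 2, 133552159 to 133562885, plus strand) was the most abundant ligand per kilobase of exon in SO+ embryos. Its levels were 15.3 and 18.5 CPM in SO+ embryos, against 29.7, 37.6 and 16.0 CPM in SO- embryos. SO- embryos 1 and 2 were above both controls, while SO- embryo 3 lay between them. For Bmp2 the log2 fold change was 0.65 (standard error 0.30, 95% interval -0.0024 to 1.31, adjusted p = 0.366 from edgeR). The VE marker sum was likewise highest in SO- embryos 1 and 2, coming over 10 genes to 3078 and 3435 CPM in SO+ embryos and to 4729, 4683 and 2950 CPM in SO- embryos 1, 2 and 3, with none of the 10 past the threshold. The log2 fold change was above 0 in 9 of these 10 VE genes, and in 49.7% of all genes tested. Hnf4a was higher in every SO- embryo, while the others overlapped. The part of these VE genes in the Bmp2 values was not tested.

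Because a share does not change with the scaling of a library, the make-up of the ligands was also compared, over the 10 genes Bmp2, Bmp3, Bmp4, Bmp5, Bmp6, Bmp7, Bmp8a, Bmp8b, Bmp10 and Bmp15. Bmp7 made up 15.9% and 40.3% of the summed ligand CPM in SO+ embryos, against 58.3%, 57.4% and 69.1% in SO- embryos. Bmp2 made up 51.3% and 43.9% in SO+ embryos against 26.5%, 28.4% and 19.5% in SO- embryos. The leading ligand was therefore Bmp2 in both SO+ embryos and Bmp7 in all 3 SO- embryos. The Bmp4 share was 14.9% and 9.12% in SO+ against 9.46%, 12.2% and 6.41% in SO- embryos, and the genotypes overlapped. The mean Bmp7 share was higher by 33.5 percentage points and that of Bmp2 changed by -22.8 points, each with p = 0.1 in a two-sided exact permutation test (10 splits of the 5 embryos), the smallest p that 2 embryos against 3 allow. Over the 17 ligand and receptor shares compared, the adjusted p was 0.34 for both. The ligand shares of an embryo add up to the whole, so a larger Bmp7 share by itself makes the Bmp2 share smaller. The mean Bmp2 level was not lower, at 16.9 CPM in SO+ and 27.8 CPM in SO- embryos. For Bmp4 the difference was -2.66 points (exact permutation test, two-sided p = 0.5), and its sign rested on SO+ embryo 1, being 0.22 points without it. Per kilobase of exon the leading ligands were the same, with Bmp7 at 13.2% and 35.6% in SO+ against 50.5% to 64.1% in SO- embryos.

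**Figure D2:**
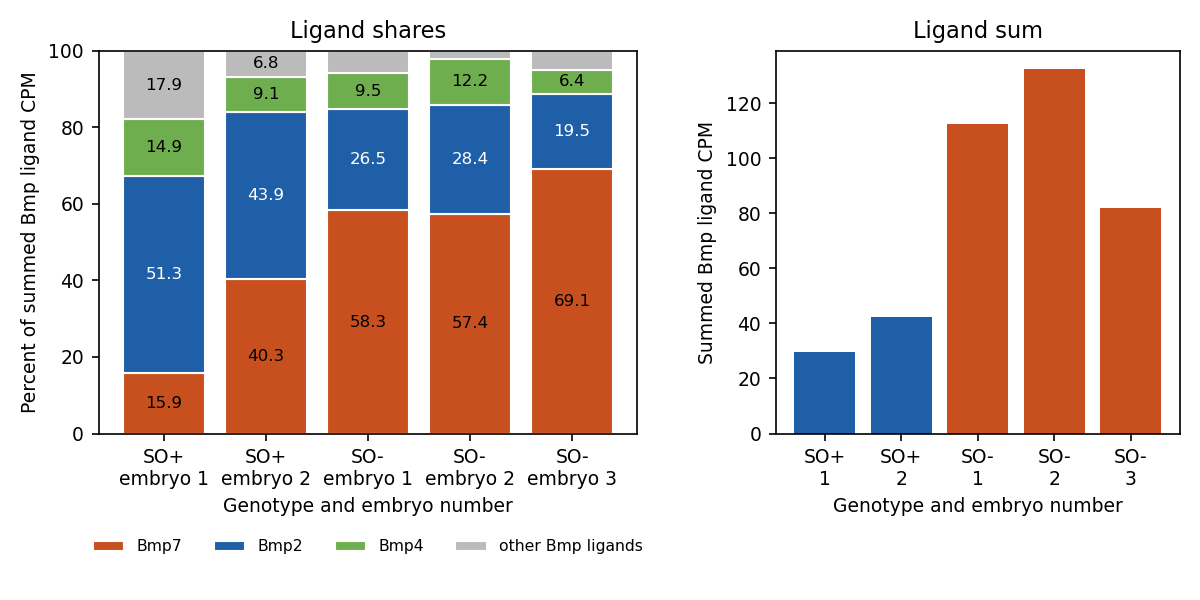
Left, percentage of the summed Bmp ligand CPM contributed by Bmp7, Bmp2, Bmp4 and the 7 other Bmp ligands in each embryo. Right, the summed Bmp ligand CPM of each embryo (blue SO+, orange SO-). Bmp2 is the largest part in both SO+ embryos and Bmp7 in all 3 SO- embryos, and the sum is higher in every SO- embryo.

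The summed ligands were at 29.7 and 42.1 CPM in SO+ embryos, against 112.5, 132.4 and 81.8 CPM in SO- embryos, a 3.03-fold difference between means (exact permutation test, two-sided p = 0.1). Bmp7 supplied 75.7% of the difference. Without Bmp7 the sum was 25.0 and 25.2 CPM in SO+ embryos, against 46.9, 56.4 and 25.3 CPM in SO- embryos (exact permutation test, two-sided p = 0.2), so that SO- embryo 3 was only just above the controls. The 7 other ligands were scarce. Bmp6 was at 0.895 to 3.14 CPM and Bmp5 at 0.185 to 3.14 CPM over the 5 embryos, and Bmp3 and Bmp8a did not exceed 0.895 CPM. Bmp8b, an ExE ligand with a near-identical neighbour in Bmp8a, so that its reads are uncertain, was at 2.43 and 0.961 CPM in SO+ embryos. It had no count in SO- embryos 1 and 2, which allows up to 0.726 and 2.68 CPM, and 2.62 CPM in SO- embryo 3. Bmp10 and Bmp15 had no count in any embryo.

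Among the modulators Bmper (ENSMUSG00000031963, chromosome 9, 23223076 to 23485200, plus strand) rose. Bmper encodes a secreted protein with chordin-like cysteine-rich domains. It was at 5.77 and 6.03 CPM in SO+ embryos, which differed only 1.04-fold, and at 23.0, 20.6 and 13.1 CPM in SO- embryos, from 23 to 163 counts. The lowest SO- embryo was 2.18-fold above the highest SO+ embryo. For Bmper the log2 fold change was 1.67 (standard error 0.34, 95% interval 0.94 to 2.40, adjusted p = 0.0205 from edgeR). The adjusted p from edgeR was 0.237 without SO- embryo 1 and 0.171 without SO- embryo 2, and limma-voom gave 0.0587, at log2 fold changes of 1.45, 1.62 and 1.604.

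Chrd (ENSMUSG00000006958, chromosome 16, 20733127 to 20742384, plus strand), which encodes chordin, was at 5.08 and 21.4 CPM in SO+ embryos, against 22.3, 40.3 and 38.7 CPM in SO- embryos. The groups were apart, but SO- embryo 1 lay only 1.04-fold above SO+ embryo 2. The log2 fold change of Chrd was 1.32 (standard error 0.47, 95% interval 0.30 to 2.34, adjusted p = 0.209 from edgeR). It depended on which control was used, with 0.62 without SO+ embryo 1 (adjusted p = 0.536 from edgeR) and 2.70 without SO+ embryo 2 (adjusted p = 1.23e-05 from edgeR). The summed level of 8 genes of the primitive streak and axial mesendoderm, where Chrd is normally transcribed, was also higher in SO+ embryo 2 than in SO+ embryo 1, although T was lower (38.7 CPM in SO+ embryo 1 and 35.5 CPM in SO+ embryo 2). The sum was 504.5 and 803.7 CPM in SO+ embryos, against 710.6, 789.2 and 610 CPM in SO- embryos, and was mostly Eomes and Mixl1. The log2 fold change was above 0 in 7 of the 8 (median 0.52), and in 49.7% of all genes tested. It was below 0 in Mixl1 (-0.44). Noto was higher in every SO- embryo (0.472 and 2.40 CPM in SO+ against 4.35, 5.37 and 3.34 CPM in SO- embryos), while the others overlapped. None of the 8 passed the test, and their part in the Chrd and Bmp7 values was not tested.

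Nog (ENSMUSG00000048616, chromosome 11, 89300638 to 89302332, minus strand), which encodes noggin, had the lowest mean level per kilobase of the modulators. It had 2.47 and 1.22 CPM in SO+ embryos, against 2.90, 3.58 and 0.954 CPM in SO- embryos, and no more than 12 counts in an SO- embryo. The log2 fold change of Nog was 0.29 with a 95% interval of -1.29 to 1.88 (adjusted p = 0.931 from edgeR), which at this depth contained the fold change of Bmper. Twsg1 (ENSMUSG00000024098, chromosome 17, 65921972 to 65951226, minus strand) had the highest level of the modulators per kilobase. It was at 65.0 and 95.9 CPM in SO+ embryos, against 80.3, 82.3 and 74.7 CPM in SO- embryos, all between the controls. Its log2 fold change was -0.03 with a 95% interval of -0.40 to 0.35 (adjusted p = 0.98 from edgeR).

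**Figure D3:**
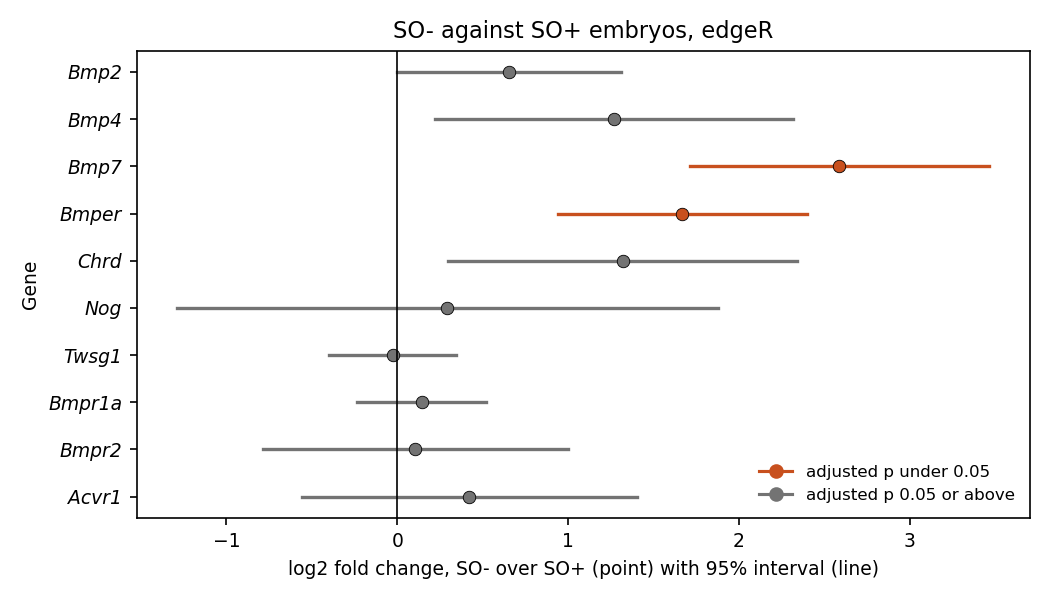
Log2 fold change (SO- over SO+) of the 10 BMP genes from edgeR's quasi-likelihood fit on 5 embryos (points) with its 95% interval (lines), orange where the adjusted p was under 0.05. The orange points are Bmp7 at 2.59 and Bmper at 1.67, and the intervals of the receptors, Nog, Twsg1 and Bmp2 reach across 0.

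Reference promoter windows, from 250 bases before to 50 after the start of the gene, were taken from RefSeq on GRCm38.p6 for the 7 of 10 genes with an entry. Bmp2, Bmp7 and Nog had none. The start is that of RefSeq, which for Twsg1, Bmpr1a, Bmpr2 and Acvr1 lies inside the gene span given here, so that their windows start from another position than its edge. The windows were searched on both strands for the octamer ATGCAAAT, which POU factors such as Oct4 bind, and for GGCGCC, a GC-rich element bound by SMADs. The octamer was in 0 of the 7 windows and in 1.74% of all 32851 windows. GGCGCC was in 3 of the 7 (Chrd, Bmpr1a and Bmpr2) and in 11.9% of all windows, and the 7 windows were richer in GC (59.3% to 83.7%) than the median window (52.7%). The windows of Bmper, which rose, and of Bmp4 and Chrd, whose genotypes did not overlap, are given 5′ to 3′ on the strand of the gene, with GGCGCC in capitals.
Bmper promoter window (chr9:23222826-23223125, plus strand): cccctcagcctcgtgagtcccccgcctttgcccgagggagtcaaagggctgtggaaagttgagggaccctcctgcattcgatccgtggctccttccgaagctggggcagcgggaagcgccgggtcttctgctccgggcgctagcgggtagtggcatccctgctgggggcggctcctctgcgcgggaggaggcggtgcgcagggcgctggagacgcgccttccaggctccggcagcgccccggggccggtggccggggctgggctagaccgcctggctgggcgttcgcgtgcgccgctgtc
Bmp4 promoter window (chr14:46390620-46390919, minus strand): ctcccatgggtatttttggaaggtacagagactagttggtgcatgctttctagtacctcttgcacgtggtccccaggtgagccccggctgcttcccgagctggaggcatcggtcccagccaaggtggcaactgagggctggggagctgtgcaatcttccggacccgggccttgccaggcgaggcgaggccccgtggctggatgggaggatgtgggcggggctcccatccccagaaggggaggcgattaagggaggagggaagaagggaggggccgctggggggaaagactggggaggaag
Chrd promoter window (chr16:20732877-20733176, plus strand): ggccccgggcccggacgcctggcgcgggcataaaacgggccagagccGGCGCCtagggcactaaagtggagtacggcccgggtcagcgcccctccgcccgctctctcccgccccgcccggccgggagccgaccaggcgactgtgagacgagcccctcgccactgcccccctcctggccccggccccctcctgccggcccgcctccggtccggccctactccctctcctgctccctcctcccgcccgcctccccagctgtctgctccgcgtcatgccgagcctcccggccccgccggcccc
A match is a description of the letters in these windows, and Oct4 or SMAD binding was not measured in these samples.

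The ligands were also set against each other and against chordin within embryos, as ratios per kilobase of exon, a comparison chosen after the levels were seen. Bmp7 over Bmp2 was 0.274 and 0.812 in SO+ embryos, against 1.95, 1.79 and 3.13 in SO- embryos. Bmp7 over Bmp4 was 0.596 and 2.47 in SO+ against 3.44, 2.64 and 6.03 in SO- embryos, and Bmp2 over Bmp4 was 2.18 and 3.04 in SO+ against 1.77, 1.48 and 1.93 in SO- embryos. Bmp7 over Chrd was 1.45 and 1.24 in SO+ embryos, which differed less in this ratio than in either gene, and 4.59, 2.94 and 2.28 in SO- embryos. These ratios were apart between genotypes, each with a two-sided p = 0.1 in the exact permutation test and an adjusted p of 0.175 over the 7 ratios computed. Chrd over Nog (exact permutation test, p = 0.5), Bmper over Chrd and Bmpr1a over Bmpr2 (p = 1.0 for both in the exact permutation test) overlapped between genotypes.

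None of the receptors passed the test. Bmpr1a (ENSMUSG00000021796, chromosome 14, 34410734 to 34503341, minus strand), the type I receptor that binds Bmp2 and Bmp4, was at 53.9 and 71.8 CPM in SO+ embryos, against 67.2, 59.1 and 77.8 CPM in SO- embryos. Its log2 fold change was 0.14 (95% interval -0.23 to 0.52, adjusted p = 0.813 from edgeR). Acvr1 (ENSMUSG00000026836, chromosome 2, 58388644 to 58567157, minus strand), a type I receptor used by Bmp7, was at 4.61 and 3.73 CPM in SO+ embryos, against 5.80, 4.47 and 5.96 CPM in SO- embryos. Its log2 fold change was 0.42 (95% interval -0.56 to 1.40, adjusted p = 0.777 from edgeR). Bmpr2 (ENSMUSG00000067336, chromosome 1, 59763400 to 59879014, plus strand), the type II receptor dedicated to BMPs, was at 10.1 and 10.6 CPM in SO+ embryos, against 6.77, 20.6 and 9.54 CPM in SO- embryos. SO- embryo 2 stood above the rest with 23 counts, and the log2 fold change of 0.11 (95% interval -0.79 to 1.00, adjusted p = 0.957 from edgeR) was -0.33 without it. As fold changes, the 95% interval of Bmpr1a ran from 0.851-fold to 1.43-fold, whereas those of Acvr1 and Bmpr2 reached up to 2.64-fold and 2.00-fold.

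The receptors were also taken as shares of 7 type I and type II receptors that can bind BMPs (Bmpr1a, Bmpr1b, Acvr1, Acvrl1, Bmpr2, Acvr2a and Acvr2b), which summed to 153.3 and 164.6 CPM in SO+ embryos and to 147.8, 188.8 and 188.0 CPM in SO- embryos. Per kilobase of exon, Acvr2b was the largest part in 4 embryos and Bmpr1a in the remaining embryo, SO- embryo 1. Bmpr1a made up 28.6% and 36.6% in SO+ against 38.9%, 26.1% and 34.2% in SO- embryos, and Acvr1 between 2.51% and 4.42% over the 5 embryos. Bmpr2 made up 1.88% and 1.91% in SO+ against 1.38%, 3.21% and 1.48% in SO- embryos. Shares of the scarce type I receptor Bmpr1b were apart between genotypes, at 2.34% and 2.07% against 1.19%, 0.422% and 0.447%, and so were those of the activin and BMP receptor Acvr2a, at 11.5% and 10.3% against 17.0%, 14.6% and 13.5% (each with a two-sided p = 0.1 in the exact permutation test, adjusted p = 0.425 over the 17 shares). Bmpr1b rested on 8, 1 and 4 counts in SO- embryos 1, 2 and 3, against 114 and 103 counts in SO+ embryos. Its value in SO- embryo 2 (0.895 CPM) lay under the level of 3 counts. That level is 2.68 CPM there, against 4.14 and 3.81 CPM of Bmpr1b in SO+ embryos. Neither Bmpr1b (log2 fold change -1.54, adjusted p = 0.262 from edgeR) nor Acvr2a (0.56, adjusted p = 0.237) passed the test as a gene. Acvrl1 was at 0 to 2.39 CPM.

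Levels of different genes were ordered per kilobase of exon (CPM per kb). In SO+ embryos the order was Twsg1 (15.6 ± 4.23, SD, n = 2), Bmpr1a (9.89 ± 1.99), Bmp2 (4.75 ± 0.64), Bmp7 (2.70 ± 2.16), Chrd (2.11 ± 1.84), Bmp4 (1.84 ± 0.18), Bmper (1.22 ± 0.037), Nog (1.09 ± 0.52), Acvr1 (0.86 ± 0.13) and Bmpr2 (0.57 ± 0.020). The ranges of Bmp7 and Chrd, Chrd and Bmp4, Bmper and Nog, and Nog and Acvr1 overlapped, so these neighbours did not differ beyond their spread. In SO- embryos Bmp7 stood first (16.4 ± 2.43, SD, n = 3) beside Twsg1 (15.3 ± 0.77), and their ranges overlapped. The other genes followed in the order of the SO+ embryos, with Bmpr1a at 10.7 ± 1.48, Bmp2 at 7.81 ± 3.08, Chrd at 5.39 ± 1.59, Bmp4 at 4.74 ± 2.42 and Bmper at 3.91 ± 1.06 CPM per kb. Only Twsg1 with Bmpr1a and Bmper with Nog were neighbours in SO- embryos whose ranges did not overlap.

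Beyond these 10 genes, a list of 48 other BMP pathway genes held 27 with enough counts to be tested, of which 1 rose and 1 fell. Of all genes tested, edgeR called 1.42% as higher and 0.928% as lower. The median log2 fold change of the 27 was -0.02. Both called genes were extracellular modulators. Fst, encoding follistatin, which binds activins and, less tightly, BMPs, fell from 100.1 and 91.2 CPM to 27.1, 13.4 and 22.4 CPM (log2 fold change -2.08, adjusted p = 2.12e-04 from edgeR). Cer1, encoding a secreted antagonist of Nodal, BMP and WNT from the anterior VE, rose from 78.3 and 82.5 CPM to 138.8, 128.9 and 118.6 CPM (0.69, adjusted p = 0.0126 from edgeR). None of the 8 SMAD transducers and SMAD regulators and none of the 5 tested other receptors passed. Of 8 tested BMP target genes, Id1 and Id2 rose (0.88 and 0.82, adjusted p = 0.0125 and 0.0120 from edgeR). Id1, Id2, Id3, Msx1, Msx2 and Bambi were higher in every SO- embryo, as were 13.9% of all genes tested. Of these, Id3, Msx1, Msx2 and Bambi did not pass (adjusted p = 0.0883, 0.0787, 0.152 and 0.202 from edgeR). None was called as lower, although Smad7 was below both SO+ embryos in every SO- embryo (-0.52, adjusted p = 0.609 from edgeR). The log2 fold change was above 0 in 6 of the 8, and in 49.7% of all genes tested.

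**Figure D4:**
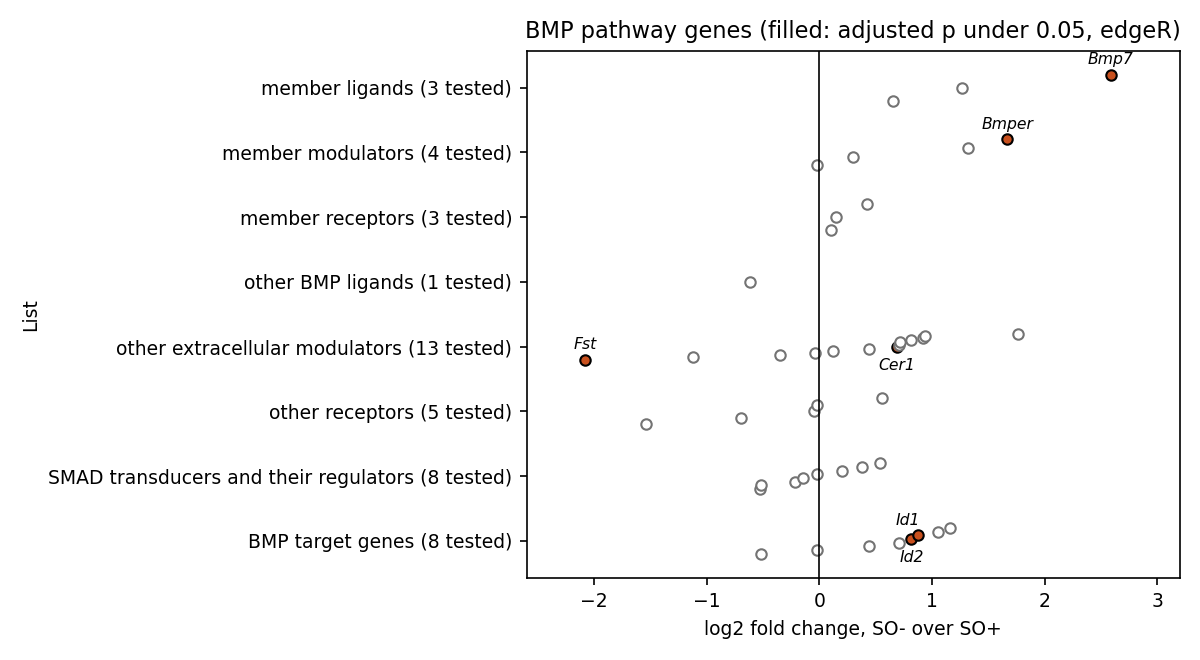
Log2 fold change (SO- over SO+) of every tested BMP pathway gene, by list, with genes at an adjusted p under 0.05 from edgeR filled and named. Bambi, Smad6 and Smad7 stand in more than a single list. Filled points lie to the right of 0 except Fst at -2.08.

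The genes whose pattern over the 5 embryos was most like that of Bmp7 were sought among 9305 genes whose mean log2 CPM reached 3, by the root mean square difference between centred log2(CPM + 1) values. They were Irgm1 (0.249), Samd3 (0.339), Gbp2 (0.380), Frzb (0.411) and Psmb8 (0.435), while the closest of the other BMP genes was Chrd at 0.665. This likeness was read from the same values as the fold changes and carries no test. All 5 were higher in SO+ embryo 2 than in SO+ embryo 1 and higher still in every SO- embryo. Frzb, which encodes a secreted WNT antagonist, was at 14.9 and 74.7 CPM in SO+ embryos, against 151.4, 151.2 and 111.7 CPM in SO- embryos. Irgm1, an interferon-inducible GTPase gene, was at 3.52 and 9.61 CPM in SO+ embryos, against 62.9, 70.7 and 44.4 CPM in SO- embryos. Among those most like Bmper were 1700027J19Rik (0.103), Maml3 (0.110), Fgf10 (0.156) and Hsd11b2 (0.165), against 0.360 for Bmp4, the closest of the other BMP genes.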

How the data were processed

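Libraries were prepared by SmartSeq2 from the epiblast and VE of E6.75 embryos, with 15 cycles of pre-amplification and no molecular identifiers. The Poisson intervals of single embryos therefore cover counting error only. The intervals of the fold changes come from the fit and include the spread between embryos. Raw counts per gene and embryo were deposited. The authors had made them with HTSeq-count on Ensembl 87 genes, from reads trimmed by cutadapt and mapped by STAR (GRCm38/mm10). The strand setting is not given in the sources used here. Bmp4, Chrd and Bmpr1a share 3.96%, 3.82% and 4.57% of their exon bases with a gene on the other strand. Embryos were grouped by the labels, which give no litter, and p-values measure the spread between these 5 embryos.

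Counts were analysed in R 4.3.3 with edgeR 4.0.16 (TMM, filterByExpr, quasi-likelihood test, genotype only, Benjamini-Hochberg adjustment) over the whole table. Standard errors were obtained as |log2 fold change|/√F, and the 95% interval uses the t quantile of the total degrees of freedom. Single values were compared by an exact permutation test of the absolute difference in means. DESeq2 1.42.0, which the study used, limma-voom (limma 3.58.1), other scalings, filters and estimates of spread, a replicate block, autosomal genes alone and each embryo left out were alternatives. Positions and exon lengths came from GENCODE M21 on GRCm38 (99.5% of genes matched). The test was checked on simulated counts with a single spread set for all genes, not estimated from these embryos. There edgeR called 119 of 200 changed genes, with 0 false calls. Of 100 genes with a log2 fold change of 1 in either direction it called 29. The 10 genes and the lists were chosen with earlier results of these data known, and the 7 ratios after their levels were seen. Named genes were the 10, Pou5f1, ligands and receptors entering a share, listed pathway genes with an adjusted p under 0.05, and the 5 closest patterns to Bmp7 and Bmper, of which 1 is not reported here. Markers and further BMP target genes were named where they stand beside a result, after their values were seen. Proteins were not analysed here.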

Additional observations from a re-analysis of the deposited data

How the results depend on the processing

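Over all genes 283 were called by edgeR, 381 by DESeq2 and 91 by limma-voom, and leaving out an embryo gave 35 to 573. A lone SO+ embryo was then assumed to vary like the SO- embryos. Of the 10 BMP genes 2 were called, against 1 with limma-voom, 1 with the robust estimate of spread and 0 to 3 with an embryo left out. The count was 0 without SO- embryo 1 and without SO- embryo 2, which leaves fewer samples, and at an unadjusted p under 0.05 edgeR then gave 3 and 2 (4 with all embryos). Same-numbered embryos share only a number (correlation of deviations -0.0085 and 0.122 for numbers 1 and 2). With the number as a replicate block, 929 genes and 5 of the 10 were called. In that fit SO- embryo 3 has no partner and adds nothing to the contrast, and 1 residual degree of freedom remains. Of 138 refitted fold changes of the 10 genes, 120 kept direction and side of the threshold and 8 changed sign, all in uncalled genes. Twsg1 was at 0.072 with the block and Bmpr2 at -0.16 with limma-voom. With an embryo left out, Twsg1 ranged from -0.29 to 0.28, Nog from -0.12 to 0.89, Bmpr1a from -0.056 to 0.37 and Bmpr2 from -0.33 to 0.42. The cause was not tested. The difference in Bmp4 share ranged from -5.55 to 0.22 points, in Bmp7 share from 21.3 to 45.7 points and in Bmp2 share from -26.5 to -19.1 points. The share differences kept their sign per kilobase, over the 3 ligands alone and without Bmp8a and Bmp8b. Depth limited Nog and Acvr1 most, with 4 and 5 counts in SO- embryo 2.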

Other observations

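The 2 SO+ embryos share a genotype, yet some BMP genes were higher in SO+ embryo 2 by a ratio that few other genes reached. Over 11803 tested genes with at least 1 CPM in both, the median ratio of SO+ embryo 2 to SO+ embryo 1 was 0.995. The ratio was 4.20 for Chrd and 3.59 for Bmp7, and 0.178% and 0.271% of the genes had a ratio as high or higher. Genes that differed as much in the other direction were not counted. For Nog it was 0.494, and for Bmper, Bmpr2 and Bmp2 it was 1.04, 1.05 and 1.21. Of 8 genes of the streak and axial mesendoderm, 7 were higher in the same embryo. In SO+ embryos 1 and 2 T was at 38.7 and 35.5 CPM, Eomes at 209.1 and 252.4 CPM, Mixl1 at 158.9 and 281.3 CPM, Foxj1 at 3.12 and 5.29 CPM, Gsc at 16.3 and 35.8 CPM, Lhx1 at 41.9 and 114.3 CPM, Foxa2 at 36.1 and 76.8 CPM and Noto at 0.472 and 2.40 CPM. Against SO+ embryo 2 the SO- embryos were 1.04-fold to 1.88-fold higher in Chrd and 3.33-fold to 4.48-fold higher in Bmp7.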
